A study of Mus musculus with 3 samples.

Results

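The 9 genes of the smooth muscle contractile apparatus, *Acta2*, *Actg2*, *Myh11*, *Myl9*, *Tagln*, *Cnn1*, *Cald1*, *Tpm1* and *Tpm2*, were followed through 3 single-cell RNA libraries of a study of mouse tendon differentiation, in which 27755 genes were listed for the culture and the tail. They were chosen with these data in view, from the summed UMIs and the shares of cells with a UMI (unique molecular identifier, a tag that marks 1 captured transcript) of cluster codes 1 and 4 in both the culture and the tail. These contrasts are therefore described and not tested. The D10 culture was a monolayer made from mouse embryonic stem cells of ScxGFP mice, which carry a green fluorescent reporter of Scleraxis (*Scx*), a transcription factor of tendon cells. The cells had been brought to paraxial mesoderm by day 6 with 500 nM LDN-193189, a blocker of BMP receptors, and from day 2 also with 5 μM of the WNT activator CHIR. They were then given 10 ng/mL TGFβ1, 100 nM of the hedgehog agonist SAG and 10 ng/mL FGF2 until day 10. The D6 PM library, labelled as embryoid bodies, held cells at the day 6 stage of the same protocol, before TGFβ1, SAG and FGF2, and the E14.5 tail library held cells dissected from tails of mouse embryos. Each group was 1 library, and the sources used here do not say how many tails or wells were pooled, so no comparison below has replicate error. Intervals in parentheses are exact 95% intervals that cover counting error only, and differences of stage, cell source and library cannot be told apart.

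In smooth muscle, actin filaments built largely from the products of *Acta2* and *Actg2* slide past myosin, which is made of the heavy chain *Myh11* and light chains such as *Myl9*, while tropomyosin (*Tpm1*, *Tpm2*), caldesmon (*Cald1*), calponin (*Cnn1*) and transgelin (*Tagln*) lie along the actin filament and tune its contact with myosin. Several of these genes are transcribed under serum response factor, which binds CArG boxes and works with myocardin (*Myocd*) in smooth muscle or with related cofactors in other cells. *Acta2* and *Tagln* are also known in activated fibroblasts and can be raised by TGFβ in cultured mesenchymal cells, whereas *Tpm1*, *Tpm2* and *Cald1* also have forms used by most cells with stress fibers, so that no single member marks a smooth muscle cell.

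The culture held 7821 cells, the tail 2052 and the D6 PM 5954, and their median depths were 5622, 13512 and 8171 UMIs per cell. Culture and tail cells carried cluster codes of 1 common scheme, given by the authors after joining these libraries, and codes of the D6 PM cells are named separately below. Code 1 held 2964 culture and 685 tail cells, code 2 1353 and 186, and code 4 855 and 241. Summed over a list of tendon markers, code 1 reached 12402 CPM (UMIs of a gene per 1000000 UMIs of the same cells) in culture and 10823 in tail, and code 4 reached 6633 and 4145. A cartilage list summed to 997 and 481 CPM in code 1 and to 5610 and 10527 in code 4, where the culture stood higher on the tendon list and the tail on the cartilage list. *Scx* stood at 2410.3 CPM in culture code 1 and 1472 in tail code 1, and at 1852 and 1905 CPM in code 4. Because genes of smooth muscle and pericytes, not tendon markers alone, led code 1 by fold over the other cells of each library, the clusters are called by code number here. The 3 libraries shared between 3 and 10 cell barcodes by pair, and a doublet caller marked 1.48% of culture and 0.439% of tail cells, a share in the tail too low to count as a working call.

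The promoters of *Acta2* and *Myl9* are shown because the myocardin and serum response factor partnership named above acts through letters of this kind. The sequences are the 250 bases before the annotated start, from RefSeq on GRCm38.p6, and 6 of the 9 genes were found by symbol in the promoter table used here, without *Tagln*, *Actg2* and *Myh11*. Capitals mark a CArG box, the element bound by serum response factor, searched on both strands, or the same with 1 of its 6 central letters exchanged. In *Acta2* they also mark CATTCC, the core bound by TEAD factors, which stands there on the opposite strand. *Acta2* lies on the minus strand at chr19:34255374-34255623, and *Myl9* on the plus strand at chr2:156775214-156775463.
Acta2: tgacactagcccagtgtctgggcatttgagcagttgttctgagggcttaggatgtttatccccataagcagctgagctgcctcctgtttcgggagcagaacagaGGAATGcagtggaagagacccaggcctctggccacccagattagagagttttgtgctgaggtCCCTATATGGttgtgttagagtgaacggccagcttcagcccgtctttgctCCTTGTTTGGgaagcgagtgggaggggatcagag
Myl9: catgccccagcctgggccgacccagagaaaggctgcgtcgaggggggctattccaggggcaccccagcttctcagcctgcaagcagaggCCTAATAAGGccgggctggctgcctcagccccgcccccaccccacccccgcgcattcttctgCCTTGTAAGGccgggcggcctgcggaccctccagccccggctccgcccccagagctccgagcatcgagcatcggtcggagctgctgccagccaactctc

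*Myl9* held a full CArG box 161 to 152 bases before its start and a second with 1 exchanged letter 99 to 90 bases before it, and *Acta2* held a pair of boxes with 1 exchanged letter, at 84 to 75 and 34 to 25 bases before the start. A full box stood in 1.47% of all 32851 promoter windows of this length, a box with 1 exchanged letter in 7.24% and CATTCC in 12.6%. *Tpm1* and 1 of the windows of *Cald1* held CATTCC once, and the windows of *Cnn1* and *Tpm2* held none of these letters. These matches are a description of the sequence and say nothing of whether a factor was bound in these cells.

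*Acta2*, the smooth muscle alpha actin, stood at 400.4 CPM (391–410.2) in culture code 1, at 167 CPM (159–175) in code 2 and at 20.1 CPM (15.6–25.6) in code 4. In the tail it stood at 277 CPM (266–287) in code 1, at 168 CPM (156–181) in code 2 and at 1.21 CPM (0.330–3.097) in code 4, the last resting on 4 UMIs. The level in code 1 was thus 19.9 (15.6–25.7) times that in code 4 in culture and 229 (89.2–840.1) times in tail, and code 2 lay between them in both. The D6 PM library held 15.04 CPM (14–16.1) over all its cells, and no D6 PM code passed 59.6 CPM. Over the 27 combinations of code and library with at least 50 cells, the highest level of *Acta2* was in culture code 7, at 1566 CPM (1455–1683), whose 257 cells were shallow, with a median of 1424 UMIs, and were led by keratin genes among others. Next came tail code 5, at 1232 CPM (1186–1279.7), a cluster led by the muscle regulators *Myog* and *Myod1* and called skeletal muscle-like here. Culture code 8 followed at 909 CPM (852–969), ahead of culture code 1. Neighbours from tail code 2 to tail code 7 overlapped in their intervals, and culture code 11, led by endothelial genes, held no UMI of *Acta2*.

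*Actg2*, the smooth muscle gamma actin of the gut and other hollow organs, was low in the libraries and nearly confined to few codes. It reached 31.6 CPM (28.9–34.4) in culture code 1 from 524 UMIs and 35.3 CPM (31.7–39.1) in tail code 1 from 357 UMIs, intervals that overlap. Code 4 held 3 UMIs in culture and 1 in tail, which put the ratio of code 1 to code 4 at 35 (11.9–170.3) in culture and 117 (20.8–4619) in tail. Code 2 held 10.4 CPM (8.53–12.5) in culture and 8.31 CPM (5.82–11.5) in tail, and culture code 7 held 53 CPM (34.3–78.2). The other 22 combinations of code and library held 5 UMIs or fewer each, and the whole D6 PM library held 3 UMIs.

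*Myh11*, the smooth muscle myosin heavy chain and a restricted marker of that tissue, was the member whose level in code 1 differed most between tail and culture. It stood at 53.6 CPM (49.2–58.3) in tail code 1 and 16.6 CPM (13.01–20.9) in tail code 2, against 4.40 CPM (3.45–5.53) in culture code 1 and 1.31 CPM (0.715–2.19) in culture code 2. Code 4 held 4 UMIs in tail and 3 in culture, so that code 1 stood 44.3 (17.2–163) times above code 4 in tail and 4.88 (1.60–24.2) times in culture. Outside tail codes 1 and 2 every combination of code and library stayed under 5 CPM, and 6 of the 27 had no UMI of *Myh11*, the skeletal muscle-like tail code 5 among them.

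*Myl9*, a regulatory light chain of smooth muscle and non-muscle myosin, was broader. Its level was 216 CPM (209–223) in culture code 1, 145 CPM (138–153) in code 2 and 46 CPM (39.0–53.9) in code 4, and in the tail 243 CPM (234–253), 142 CPM (131–154) and 64.7 CPM (56.3–74.0) in the same order. The ratio of code 1 to code 4 was 4.69 (3.99–5.56) in culture and 3.76 (3.27–4.34) in tail, intervals that overlap. Culture code 7 was again highest, at 449 CPM, and the D6 PM codes held 3.45 to 17.2 CPM.

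*Tagln*, an actin-bundling protein of smooth muscle and activated fibroblasts, stood at 499 CPM (488–509.5) in culture code 1, at 279 CPM (269–289) in code 2 and at 44.8 CPM (37.9–52.6) in code 4. In the tail it stood at 167 CPM (159–175) in code 1, at 137 CPM (126–148) in code 2 and at 44.7 CPM (37.8–52.6) in code 4. Code 4 was therefore level in both libraries, while code 1 exceeded it 11.1 (9.46–13.2) times in culture and 3.74 (3.16–4.45) times in tail. Above culture code 1 lay only culture codes 7 and 8, at 1320.1 and 635 CPM, and tail codes 6 and 12 held no UMI.

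*Cnn1*, calponin, which binds actin and slows the myosin ATPase, was sparse, with 159 UMIs or 9.58 CPM (8.15–11.2) in culture code 1 and 208 UMIs or 20.5 CPM (17.8–23.5) in tail code 1. The 7 UMIs of culture code 4 and 1 of tail code 4 gave ratios of 4.55 (2.16–11.5) and 67.9 (12.1–2696). Unlike *Actg2*, *Cnn1* was not confined to codes 1, 2 and 7 in the cultures: the largest D6 PM code held 9.02 CPM (7.70–10.52) and culture code 3 held 8.10 CPM (6.55–9.90), intervals that overlap with that of culture code 1. In 7 combinations no UMI of *Cnn1* was found, 5 of them in the tail.

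*Cald1*, caldesmon, and the tropomyosin gene *Tpm1* were broad, with UMIs in all 27 combinations of code and library. *Cald1* stood at 2164 CPM (2142–2186) in culture code 1, at 1808 CPM (1782–1833) in code 2 and at 1553 CPM (1510.5–1595) in code 4, a ratio of code 1 to code 4 of 1.39 (1.35–1.44). In the tail code 4 was the highest instead, with 744 CPM (728–761) in code 1, 663 CPM (639–688) in code 2 and 994 CPM (960.1–1028) in code 4, a ratio of 0.749 (0.719–0.780). Both intervals leave out 1, on opposite sides of it. All 3 culture codes lay above all 3 tail codes, and the skeletal muscle-like tail code 5 was low for this gene, at 247 CPM.

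*Tpm1*, which encodes an alpha tropomyosin of muscle and non-muscle filaments, stood at 2239 CPM (2216–2262) in culture code 1, at 1899.8 CPM (1874–1926) in code 2 and at 1535 CPM (1494–1578) in code 4, with a ratio of code 1 to code 4 of 1.46 (1.42–1.502). In the tail, code 1 at 1026 CPM (1006–1045) and code 4 at 1002 CPM (968–1037) did not differ beyond counting error, with a ratio of 1.02 (0.984–1.06). *Tpm2*, the beta tropomyosin, had its highest level outside codes 1, 2 and 4, at 1506 CPM (1455–1558) in the skeletal muscle-like tail code 5. Its level in code 1 was 217 CPM (209.8–224) in culture and 245 CPM (236–255) in tail, 1.74 (1.57–1.93) and 1.40 (1.28–1.54) times that of code 4. *Tpm2* was also the only member above its culture code 1 level in the D6 PM library, where code 5 held 369.6 and code 4 held 229 CPM.

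**Figure D1:**
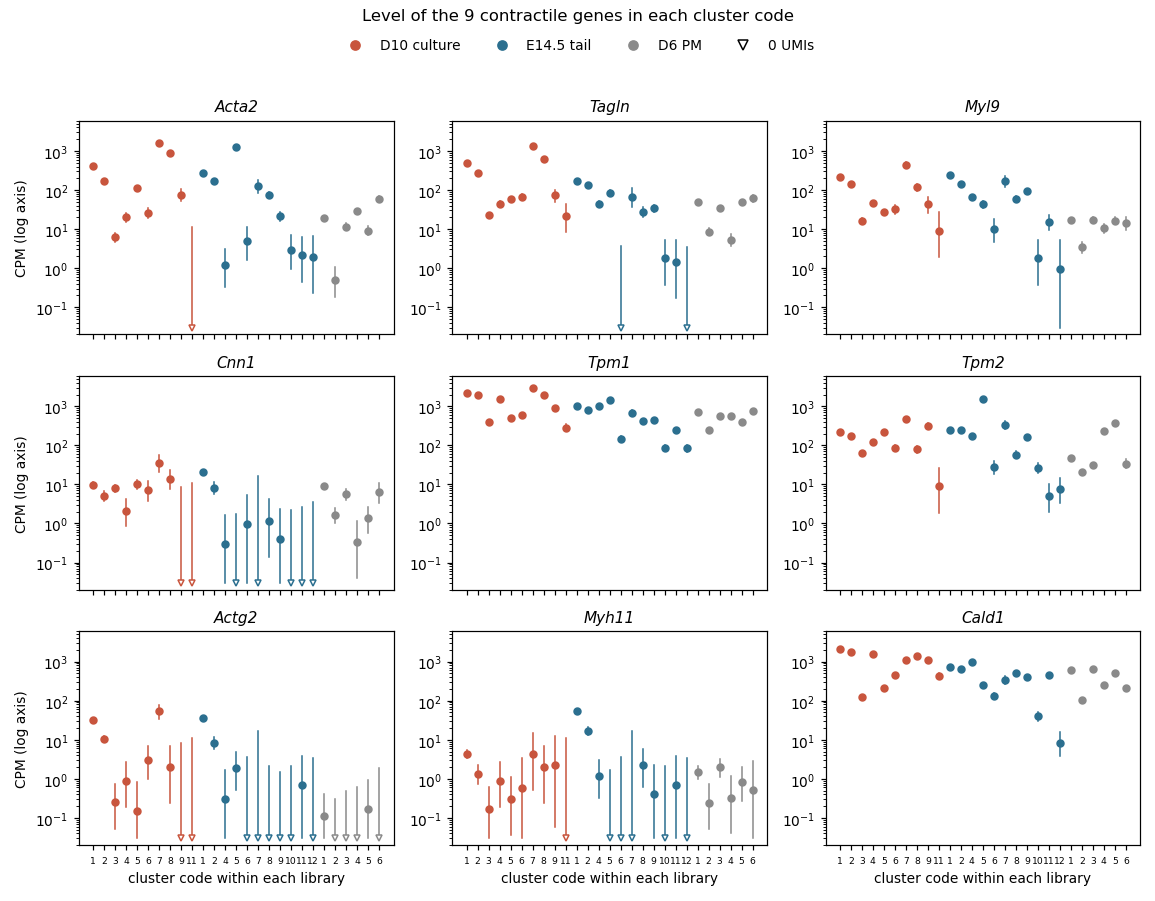
CPM of each member in every code with at least 50 cells in each of the 3 libraries, on a log axis with 95% Poisson intervals as lines and triangles where no UMI was found. *Acta2* and *Tagln* were highest in culture code 7, *Tpm2* in tail code 5 and *Myh11* in tail code 1.

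Members were then counted by a rule of size, in which a gene enters if at least 10% of the cells of either group hold a UMI and is called apart at 2-fold. In each library 6 of the 9 members entered the contrast of code 1 with code 4, and *Cnn1*, *Actg2* and *Myh11* did not. *Acta2*, *Tagln* and *Myl9* were called higher in code 1 in culture and in tail, and none lower. Over all genes that entered, 4.90% were apart in either direction and 3.36% were higher in code 1 in culture, and 9.93% and 6.28% in tail. The members were chosen on this contrast, so nothing is read from their share. Without the cells that held a UMI of *Lmod1* or *Myocd*, described below, the tail ratio of *Tagln* was 1.81 (1.52–2.17), under 2-fold, that of *Myl9* was 2.54 (2.20–2.94) and that of *Acta2* was 29.1 (11.3–108). In the culture the same step left *Acta2* at 17.8 (13.96–23.0), *Tagln* at 10.3 (8.73–12.2) and *Myl9* at 4.43 (3.76–5.24). Among the sparse members the step left the tail ratio of *Actg2* at 2.80 (0.375–124) and that of *Cnn1* at 4.20 (0.621–179), intervals that include 1. It left *Myh11* at 3.32 (1.197–12.8) in tail and 3.64 (1.18–18.2) in culture.

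**Figure D2:**
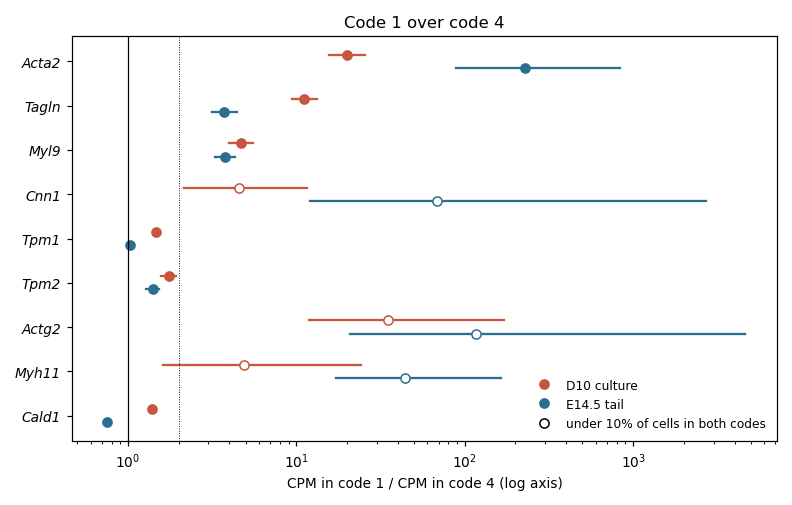
Ratio of CPM in code 1 to CPM in code 4 for each member in the D10 culture and the E14.5 tail, on a log axis with exact 95% intervals as lines, a dotted line at 2-fold and open circles for members under 10% of cells in both codes. Wide intervals mark members with 7 or fewer UMIs in code 4, and *Cald1* lies on opposite sides of 1.

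Cells differed in depth, with a median of 4918.5 UMIs in culture code 1, 3696 in culture code 4, 13463 in tail code 1 and 13136 in tail code 4, so shares of cells with a UMI were compared after random thinning of every cell to a depth of 3000 UMIs. This left out 1157 culture, 100 tail and 1006 D6 PM cells below that depth. *Acta2* was then found in 18.7% (17.2–20.2) of culture code 1 cells and in 8.26% (6.30–10.6) of tail code 1 cells, against 23.6% and 17.5% before thinning. *Tagln* was found in 30.9% (29.2–32.8) and 16.7% (13.9–19.7) of code 1 cells in culture and tail, and *Myl9* in 29.4% (27.7–31.2) and 36.6% (32.9–40.3). In code 4, *Acta2* was found in 4.84% (3.31–6.79) of culture cells and 0.417% (0.0105–2.30) of tail cells. For background, *Acta2* was found in 1.48% (0.848–2.39) of culture code 3 cells, which are led by genes of pluripotent cells such as *Prdm14* and have a median of 10369.5 UMIs. It was found in 0 of 125 cells of tail code 12, which is led by haemoglobin genes and has a median of 8391.5 UMIs, a count that allows a share of up to 2.40%, taken as 3 cells of 125. *Acta2* in culture code 4 thus lay above the share in culture code 3, while the share in tail code 4 lay under this limit.

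*Cald1* was found in 99.3% (99.0–99.6) of culture and 82.0% (78.9–84.8) of tail code 1 cells, and *Tpm1* in 95.03% (94.1–95.8) and 85.1% (82.2–87.7). The rare members were found in few cells: *Actg2* in 4.01% (3.29–4.84) of culture and 1.92% (1.02–3.26) of tail code 1 cells, *Cnn1* in 1.85% (1.37–2.45) and 2.36% (1.35–3.80), and *Myh11* in 0.771% (0.471–1.19) and 3.54% (2.28–5.22). In culture code 3, for background, *Cnn1* was found in 3.24% (2.27–4.47) of cells, *Myh11* in 0.0925% (0.00234–0.514) and *Actg2* in 0 of 1081, which allows a share of up to 0.278%, and in tail code 12 all 3 were found in 0 of 125. The share of *Cnn1* in culture code 1 was thus not above that in code 3. For *Myh11* the intervals of the shares in culture codes 1 and 3 overlapped at their ends. By CPM, *Myh11* in culture code 1 at 4.40 (3.45–5.53) stood above culture code 3 at 0.171 (0.0207–0.616), the latter from 2 UMIs. In tail code 1, the shares of *Actg2* and *Cnn1* lay under the limit of 2.40% from tail code 12. The small number of cells there, 125, sets that limit, so it cannot tell these shares from background. By CPM, *Actg2* at 35.3 and *Cnn1* at 20.5 in tail code 1 stood above tail code 12, which held no UMI of either, with an upper limit of 3.47 CPM.

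**Figure D3:**
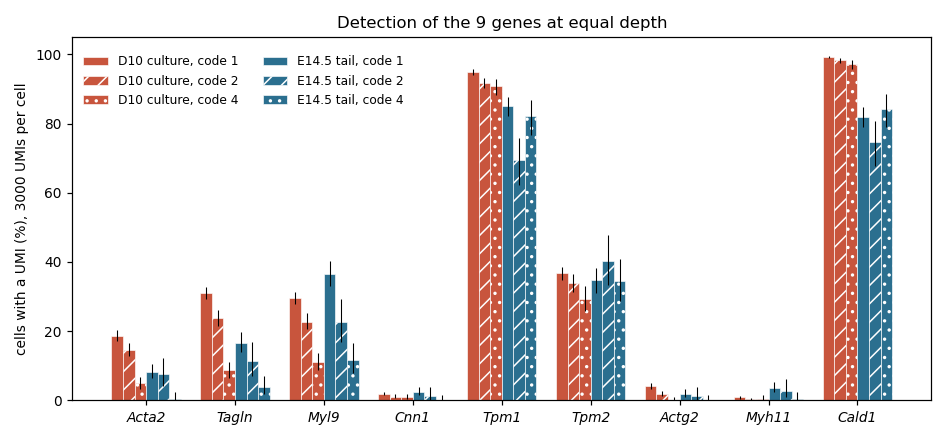
Share of cells with a UMI of each member after thinning to 3000 UMIs, in codes 1, 2 and 4 of the D10 culture and the E14.5 tail, with Clopper-Pearson 95% intervals. In code 1 *Tagln* was found in a larger share of culture than of tail cells, and *Myh11* in a smaller one.

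The spread of each member's UMIs over the cells of code 1 was then compared between the libraries. In the culture, the 5% of thinned code 1 cells with most *Acta2* held 70.7% of its UMIs, and in the tail they held 96.2%. For *Tagln* these shares were 49.4% and 72.3%, for *Myl9* 37.5% and 44.9%, and for *Tpm2* 30.7% and 43.3%. *Cald1* and *Tpm1* were spread most evenly, with 10.7% and 15.3% in culture and 18.5% and 19.0% in tail. A single tail code 1 cell held 413 UMIs of *Acta2*, and the highest culture code 1 cell held 197.

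Code 1 was then divided by whether a cell held a UMI of *Lmod1*, leiomodin of smooth muscle thin filaments, or *Myocd*, the myocardin cofactor, neither of which is a member, a division chosen after seeing these data. In the tail, 47 of 685 code 1 cells held such a UMI, at a median of 13580 UMIs against 13358.5 in the others. These cells carried 88.1% of the *Acta2* UMIs of tail code 1, 94.2% of *Cnn1*, 97.8% of *Actg2* and 93% of *Myh11*. The same cells carried 54.8% of *Tagln* and 37.2% of *Myl9*, but 15.2% of *Tpm1*, 12.6% of *Cald1* and 3.49% of *Scx*. In the culture, 58 of 2964 code 1 cells held a UMI of *Lmod1* or *Myocd*, at a median of 6763 UMIs against 4893. These culture cells carried 14.3% of the *Acta2* UMIs, 21.4% of *Cnn1*, 16.4% of *Actg2* and 27.4% of *Myh11*. Fewer such cells can be found at lower depth, so the division was repeated on cells thinned to 3000 UMIs, where 23 of 678 tail and 27 of 2595 culture cells of code 1 still held a UMI of either gene. They then carried 78.3% of the *Acta2* UMIs in the tail and 3.51% in the culture, and 69.4% of *Myh11* in the tail against 1 of 25 UMIs in the culture. *Acta2* stood at 3467 CPM (3331–3606) in the tail cells with such a UMI and 35.4 CPM (31.7–39.4) in those without, and at 1912 CPM (1792–2037) and 354 CPM (345–363) in the culture.

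*Myh11* followed the same lines, at 709 against 4.04 CPM in the tail and 40.3 against 3.29 in the culture. *Tagln* stood at 1302 against 81.4 CPM in the tail and 1811 against 458 in the culture. *Cald1* differed least in the culture, at 2379 against 2157 CPM. The tail cells with such a UMI were lower in *Scx*, at 730.4 against 1528 CPM, and higher in *Mylk*, the kinase of myosin light chain, at 371 against 30.2. *Tnmd*, tenomodulin, a late tendon gene, was higher in them, at 169 CPM (139.7–202) against 87.3 CPM (81.5–93.5), and also in the culture cells with such a UMI, at 62.4 CPM (42.4–88.6) against 22.4 CPM (20.1–24.8). The tail cells were also higher in *Foxf1*, a transcription factor of visceral mesenchyme, at 214 against 13.9, and in the pericyte marker *Rgs5*, at 204 against 15.8. In the culture cells with such a UMI *Scx* stood at 1847 against 2428 CPM and *Rgs5* at 10.1 against 12.2. A list of 7 smooth muscle markers summed to 81.8, 62.8 and 37 CPM in culture codes 1, 2 and 4 and to 164, 87.8 and 25.7 in the tail. It holds *Cnn1*, *Actg2* and *Myh11*, which were chosen on codes 1 and 4, so nothing is read from the order of these sums. Of its other genes, *Lmod1* was at 0 in culture code 4 and *Myocd* at 0 in tail code 4. The part of other cell types within code 1 in the levels above was not tested.

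**Figure D4:**
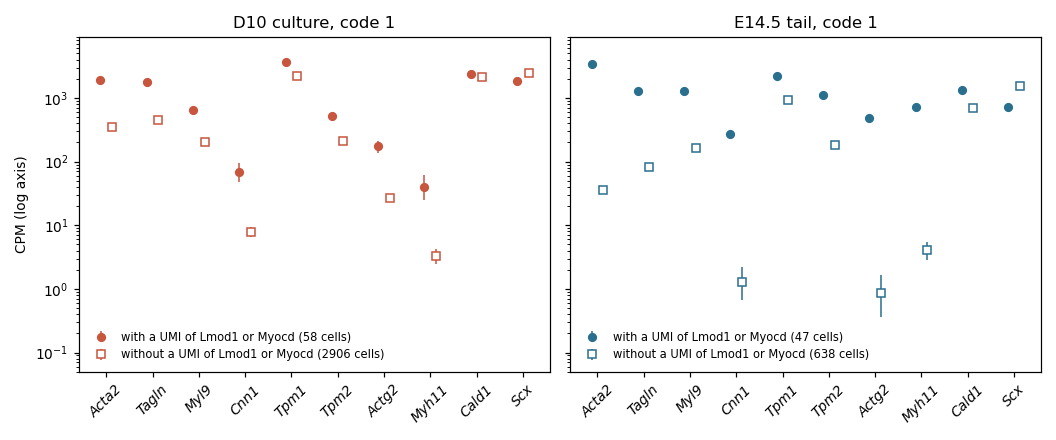
CPM of members and *Scx* in code 1 cells with and without a UMI of *Lmod1* or *Myocd*, in the D10 culture and the E14.5 tail. In the tail the cells with such a UMI lie far above the others for *Acta2*, *Cnn1*, *Actg2* and *Myh11*.

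Sorting code 1 cells by how many of *Cnn1*, *Actg2* and *Myh11* they held gave another view of the same cells. In the culture, 2725 cells held none, 186 held 1, 43 held 2 and 10 held all 3, and in the tail 633, 33, 5 and 14 did. Median UMIs rose along this order in the culture, from 4788 to 12789.5, and stood at 13264, 16470, 18321 and 12826 in the tail. *Acta2* stood at 129.6, 1336, 3545 and 7054 CPM in this order in the culture, and at 36.7, 98.4, 3286 and 10889 in the tail. *Scx* stood at 2477 CPM in culture cells with none and 1176 in those with all 3, and in the tail at 1489 and 36.2. *Tnmd* stood at 13.9, 56, 149 and 223 CPM in the culture. The last group is 10 cells in culture and 14 in tail, and the part of depth in the culture order was not tested.

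**Figure D5:**
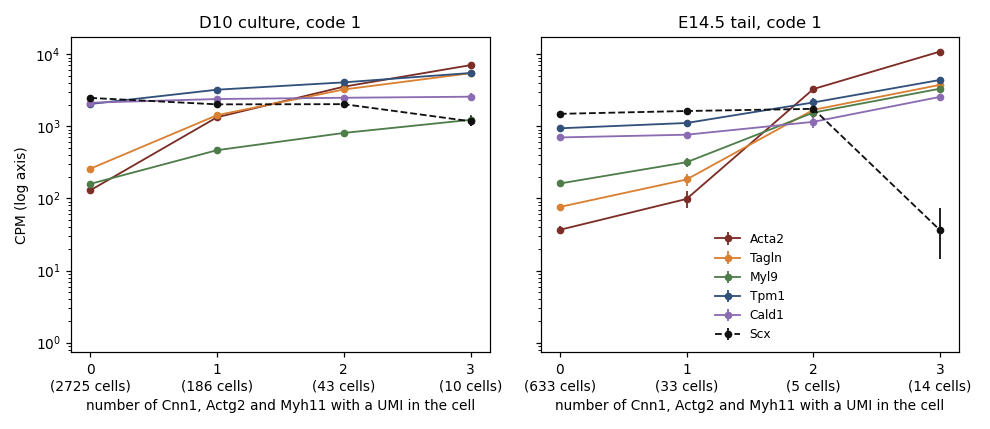
CPM in code 1 cells grouped by how many of *Cnn1*, *Actg2* and *Myh11* had a UMI, from 0 to 3, in the D10 culture and the E14.5 tail. *Acta2* is higher with each step in both, while *Scx* drops in the tail cells with all 3.

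At equal depth, culture code 1 cells with a UMI of *Acta2* held *Scx* in 92.0% (89.2–94.2) of 485 cells against 90.3% (89.0–91.6) of 2110, intervals that overlap. In tail code 1, *Scx* was found in 8 of 56 cells with *Acta2*, 14.3% (6.38–26.2), against 40.0% (36.2–44.0) of those without. *Scx* was found in 0 of 16 tail cells with *Cnn1*, in 0 of 13 with *Actg2* and in 2 of 24 with *Myh11*. *Tnmd* went with the members in culture code 1, where it was found in 12.2% (9.39–15.4) of cells with *Acta2* against 1.42% (0.961–2.02) of those without, and in 25% (17.03–34.4) of cells with *Actg2* against 2.53% (1.95–3.22). With *Tagln* the shares were 8.72% (6.86–10.9) and 1.06% (0.640–1.65). In tail code 1, *Tnmd* was found in 10.7% (4.03–21.9) of cells with *Acta2* and 8.52% (6.45–11) of those without, intervals that overlap.

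Some members were found together in the same cells. *Acta2* and *Tagln* were both found in 14.45% of thinned culture code 1 cells and 3.98% of tail code 1 cells. Their log2(UMI + 1) values had a Pearson r of 0.70 over 2595 culture cells and 0.66 over 678 tail cells, cells that share 1 library and depth in each case. *Acta2* and *Actg2* had an r of 0.52 in the culture and 0.79 in the tail, and *Acta2* and *Cald1* one of 0.07 and 0.25.

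The culture was set beside the tail within code 1 to ask how the cells made in the dish differed from those of the embryo. *Tagln* stood 2.98 (2.83–3.14) times higher in the culture, *Cald1* 2.91 (2.84–2.98) times and *Tpm1* 2.18 (2.14–2.23) times, and these were the 3 of 6 members past 2-fold. Of all genes that entered, 19.4% were apart in either direction and 5.76% were higher in the culture. *Acta2* was 1.45 (1.38–1.51) times higher, or 0.803 times as a mean of CPM per cell, which puts it below the tail. *Actg2* did not differ beyond counting error at 0.896 (0.782–1.03), and *Myl9* and *Tpm2* were near level at 0.889 (0.844–0.936) and 0.885 (0.840–0.932). *Cnn1* was 2.14 (1.74–2.65) times and *Myh11* 12.2 (9.53–15.8) times higher in the tail. In cells thinned to 3000 UMIs, which count equally and leave out those below that depth, the culture stood at 0.892 (0.812–0.9802) times the tail for *Acta2*, at 0.486 (0.372–0.639) for *Actg2*, which was then lower in the culture, and at 2.19 (1.96–2.47) for *Tagln*. Left without the cells that held a UMI of *Lmod1* or *Myocd*, *Acta2* stood 10 (8.95–11.2) times higher in the culture at full depth and 3.87 (3.23–4.68) times higher when cells were thinned before they were divided. For *Tagln* these ratios were 5.63 (5.23–6.07) and 3.51 (3.03–4.08), and for *Myh11* 0.816 (0.528–1.27) and 0.180 (0.102–0.313). For *Actg2* the ratio of 32.02 (16.1–74.6) at full depth became 1.36 (0.913–2.10) in the thinned cells. For *Cnn1* 6.09 (3.37–12.1) became 1.45 (0.736–3.19), and neither then differed beyond counting error. The thinned division took out 23 tail cells against 47 at full depth, so some of the latter stayed in. Tail cells without such a UMI then held *Actg2* at 14.8 CPM and *Cnn1* at 5.09 CPM, against 0.850 and 1.27 at full depth. The part of the cells left in was not tested. *Cald1* at 3.08 (3.004–3.17) and *Tpm1* at 2.35 (2.30–2.41) moved little at full depth, where *Myl9* at 1.23 (1.16–1.31) and *Tpm2* at 1.16 (1.09–1.23) passed to the other side of 1, and in the thinned cells *Myl9* at 0.99 (0.880–1.12) and *Tpm2* at 1.09 (0.966–1.23) had intervals that include 1.

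Within code 4 no member that entered was past 2-fold between culture and tail, where 17.9% of all genes were apart in either direction and 4.86% were higher in the culture. *Tpm1* at 1.53 (1.47–1.60) and *Cald1* at 1.56 (1.495–1.63) were higher in the culture, *Tagln* was level at 1.001 (0.792–1.27), and *Myl9* at 0.711 (0.574–0.879) and *Tpm2* at 0.711 (0.625–0.808) were lower. *Acta2* did not enter, being found in too few cells, and had a ratio of 16.7 (6.21–62.9) from 67 against 4 UMIs.

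Code 2 also held *Scx*, at 2699 CPM in culture and 1664 in tail, and stood apart in cell division, with *Mki67*, *Top2a* and *Cenpf* summing to 3307 and 3327 CPM against 413 and 79.5 in code 1. In the culture all 9 members were higher in code 1 than in code 2, from 1.18 (1.16–1.199) times for *Tpm1* to 3.37 (1.88–6.46) for *Myh11*, with *Acta2* at 2.40 (2.28–2.53) as the 1 member of 6 past 2-fold. Of all genes that entered there, 4.40% were apart and 0.186% were higher in code 1. By mean of CPM per cell 0 of the 6 members were past 2-fold in the culture, beside 4.69% of all genes. In the tail, *Acta2* had a ratio of 1.65 (1.52–1.79), *Actg2* of 4.24 (3.01–6.15), *Myh11* of 3.23 (2.52–4.18) and *Tpm2* of 1.01 (0.938–1.08), and 0 of 6 members were past 2-fold. Of all genes that entered in the tail, 8.23% were apart and 2.76% were higher in code 1. Without the cells with a UMI of *Lmod1* or *Myocd* the tail ratio of *Acta2* was 0.464, so that code 2 was then the higher one. The same step left *Actg2* at 1.17 (0.280–6.83), *Myh11* at 0.924 (0.514–1.72) and *Tpm2* at 0.785 (0.724–0.851).

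Against the D6 PM as a whole, culture code 1 was higher in all 9 members. The ratio was 26.6 (24.7–28.7) for *Acta2*, 15.1 (14.4–16.0) for *Tagln*, 16.8 (15.5–18.3) for *Myl9*, 5.06 (4.98–5.15) for *Cald1*, 4.17 (4.10–4.23) for *Tpm1* and 2.26 (2.17–2.36) for *Tpm2*, and these 6 of 6 were past 2-fold. Of all genes that entered here, 25.2% were apart and 12.0% were higher in culture code 1. *Actg2* had a ratio of 546 (186–2656) from 524 against 3 UMIs, *Myh11* of 4.31 (2.98–6.25) and *Cnn1* of 1.996 (1.63–2.45). By mean of CPM per cell 5 of the 6 were past 2-fold, with *Tpm2* at 1.66, and 25.3% of all genes were apart. The D6 PM library is a mix of cells. Its code 1, of 2539 cells, reached 999.8 CPM on an endoderm list, and its code 2, of 1038 cells, 7674 CPM on a pluripotent list. Its code 4, of 700 cells, was the highest of its codes on a somite list, at 398 CPM, and held *Acta2* at 28.6 CPM. The day, the added factors, the library and the mix of cells differ together here and cannot be told apart.

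Other genes of the contractile apparatus, the paralogs of the members and genes of the pathways above were read from lists drawn up with earlier results of these data known. Of 19 other contractile and cytoskeletal genes, 10 entered the contrast of code 1 with code 4 in the culture, and 2 were higher, with a median log2 ratio of 0.56 against -0.02 over all genes, of which 4.90% were apart. These were *Csrp1*, a LIM protein of smooth muscle, at 3.19 (2.54–4.06) and *Tgfb1i1*, a focal adhesion protein, at 3.72 (2.99–4.70). In the tail 17 entered, 7 were higher, among them *Tgfb1i1* at 2.36 (1.95–2.88) and *Ppp1r14a*, an inhibitor of myosin phosphatase, at 6.03 (3.81–10.1), and 1 was lower, with a median of 0.70 against -0.01 over all genes, of which 9.93% were apart. Between culture and tail within code 1, 17 entered, *Csrp2* was higher at 2.34 (2.25–2.43) and 5 were lower, with *Mylk* at 0.123 (0.0989–0.151) and desmin (*Des*), the muscle intermediate filament, at 0.125 (0.0851–0.178), and a median of 0.02 against -0.21 over all genes, of which 19.4% were apart. At full depth the tail cells with a UMI of *Lmod1* or *Myocd* carried 48.2% of the *Mylk* UMIs of tail code 1. The other code 1 cells held *Mylk* at 6.52 CPM in culture and 30.2 CPM in tail. When cells were thinned to 3000 UMIs before they were divided, the tail cells with such a UMI carried 40.4%. Without those found after thinning in either library, the ratio of *Mylk* was 0.176 (0.119–0.259). Against the D6 PM, 11 entered, 5 were higher in culture code 1 and 1 was lower, with a median of 0.89 against -0.06, beside the 25.2% of all genes apart in that contrast.

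Of the 15 paralogs, which are other actins, calponins, transgelins, tropomyosins and myosin chains, 11 entered in the culture. *Tagln2* was higher in code 1 than in code 4 there, at 4.64 (4.11–5.24). The median log2 ratio was 0.63 against -0.02 over all genes, of which 4.90% were apart. Of 13 in the tail none was apart, beside 9.93% of all genes, with a median of 0.09 against -0.01. Within code 1, *Tagln2* at 4.64 (4.32–4.99) and the non-muscle myosin *Myh9* at 3.01 (2.79–3.25) were higher in the culture than in the tail, and *Tagln3* and *Myl12b* were lower, which makes 4 of 13 apart beside 19.4% of all genes. The last 500 bases of the members' GENCODE M21 transcripts shared no run of 50 bases with any other gene, so reads of a member near its end could be told from those of its paralogs.

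Of 10 genes on a list of TGFβ targets, 8 were in the files and 7 entered in the culture. Here 2 were higher in code 1 than in code 4, among them *Col1a1*, a chain of the main tendon collagen, at 2.20 (2.13–2.27). *Ctgf* was lower at 0.497 (0.462–0.535). The median log2 ratio was -0.33 against -0.02 over all genes, of which 4.90% were apart. In the tail 6 entered, *Col1a1* was higher at 4.41 (4.23–4.6) and *Ctgf* lower at 0.0957 (0.0836–0.109), with a median of -0.39 against -0.01 over all genes, of which 9.93% were apart. Within code 1, 3 were higher in the culture than in the tail, among them *Ctgf* at 5.39 (4.76–6.11) and *Skil* at 3.40 (3.12–3.72). None of the 7 that entered was lower, and 19.4% of all genes were apart. Of 9 regulators of the serum response factor pathway and of visceral mesenchyme, 7 were in the files, and 2 entered in the culture and 6 in the tail. In the culture neither was apart between codes 1 and 4, with a median log2 ratio of 0.29 against -0.02 over all genes, of which 4.90% were apart. In the tail *Tbx18*, a factor of pericyte and smooth muscle precursors, was higher at 2.55 (1.75–3.84) and *Foxf1* lower at 0.407 (0.341–0.487), with a median of 0.05 against -0.01, beside the 9.93% of all genes apart in that contrast.

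Across the 27 combinations of code and library, the genes whose log2(CPM + 10) ran most like that of *Acta2*, among 8459 genes that reached 50 CPM somewhere, were *Tagln* (r = 0.85), *Myl9* (0.78) and *Nexn* (0.77). *Tagln* ran most like *Tpm1* (r = 0.89), *Myl9* (0.85) and *Acta2* (0.85), and *Myl9* like *Palld* (r = 0.86), *Tagln* (0.85) and *Spats2l* (0.83). The nearest to *Cnn1* were *Actg2* (r = 0.76), *Tagln* (0.74) and *Lurap1l* (0.63), to *Actg2* *Thbs4* (r = 0.86), *Aldh1a3* (0.78) and *Myl9* (0.75), and to *Myh11* *Col6a6* (r = 0.88), *Nov* (0.80) and *Osr1* (0.77). *Cnn1* itself stayed under 50 CPM and could not be named for another gene, although its r of 0.76 with *Actg2* lies above that of *Myl9*. *Tpm1* ran most like *Tagln* (r = 0.89), *Tceal8* (0.85) and *Cald1* (0.84), *Tpm2* like *Gpc1* (r = 0.78), *Lgals1* (0.77) and *Nexn* (0.77), and *Cald1* like *Tnfaip8* (r = 0.91), *Rcn1* (0.90) and *Txndc5* (0.90). *Acta2*, *Tagln* and *Myl9* were thus each among the 3 nearest genes of at least 1 other of them, whereas the nearest genes of *Myh11*, *Tpm2* and *Cald1* were not members. These are descriptions over points that share libraries, and the combinations are not independent.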

How the data were processed

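Single cells of the D6 PM, the D10 culture and the E14.5 tail (1 library each) were captured with 10x 3′ v3 chemistry after depletion of dead cells. The authors deposited whole UMI counts per gene and cell with a cluster code, after Cell Ranger, which ignored reads that map to several places, and Seurat 3.0, and had removed cells over 7.5% mitochondrial transcripts and the bottom and top 2% by transcripts; the genome reference of these counts is not given in the sources used here. The culture and tail codes come from an integration of both libraries.

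UMIs of a gene were summed per code and library, divided by all UMIs of the same cells and given as CPM, with exact Poisson intervals; ratios have conditional binomial intervals and shares Clopper-Pearson intervals, all at 95% and covering counting error only. PCR copies share a UMI, but cells of 1 library are no replicates, so no p was computed. Codes under 50 cells were left out. Genes entered a contrast with a UMI in at least 10% of cells of either group and were called apart at 2-fold. Genes named were the 9 members, those of 4 lists, the 3 genes most like each member, markers of cell types and genes that led a code by fold. A gene of the lists is not reported here. The members and lists were chosen with earlier results of these data known. Alternatives were a mean of CPM per cell, other folds, no filter, median centring, other denominators, thinning to 5000 UMIs, and leaving out doublets (Scrublet in Scanpy 1.11.5, 6% expected) or cells under 1000 genes. The computation of fold calls was checked on simulated counts with known changes. Python 3.11.15, NumPy 2.4.6, SciPy 1.17.1, pandas 2.3.3 and Matplotlib 3.10.9 were used.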

Additional observations from a re-analysis of the deposited data

Results flagged for a closer look

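The ratio of *Cald1* between code 1 and code 4 was 1.39 in the D10 culture and 0.749 in the E14.5 tail, on opposite sides of 1, and the difference between these ratios was not tested. Each library gives 1 value.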

How the results depend on the processing

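Each contrast rests on 1 library per group, so no replicate could be left out. No paired analysis was possible because each group is 1 library. Without the filter on detection, 6 members were past 2-fold between codes 1 and 4 in culture and 6 in tail, 5 between culture and tail in code 1, 3 in code 4, and 3 between codes 1 and 2 in culture and 3 in tail, against 3, 3, 3, 0, 1 and 0 with it, since *Cnn1*, *Actg2* and *Myh11*, and in code 4 also *Acta2*, then enter. Over all genes 34.1%, 31.5%, 37.3%, 36.9%, 19.3% and 27.9% were then apart. At 3-fold, 0 members were apart between culture and tail in code 1 and 0 between codes 1 and 2 in culture, where 9.78% and 2.54% of all genes were. At 1.5-fold 2 were apart in code 4 between culture and tail, and 2 between codes 1 and 2 in each library, where 36.7%, 9.25% and 21.4% of all genes were. With the mean of CPM per cell, 0 members were apart between codes 1 and 2 in culture and 1 in tail, beside 4.69% and 9.25% of all genes. The ratio of *Acta2* between culture and tail in code 1 was then 0.803. Divided by the median ratio of all genes, whose median log2 ratio between culture and tail was -0.21 in code 1 and -0.18 in code 4, the ratios of *Myl9* and *Tpm2* between culture and tail in code 1 were 1.02 and 1.02. Without cells with a UMI of *Lmod1* or *Myocd*, a choice made after seeing the data, the ratios of *Myl9*, *Cnn1* and *Tpm2* between culture and tail in code 1 were 1.23, 6.09 and 1.16. Those of *Acta2*, *Tagln*, *Cnn1* and *Myh11* between codes 1 and 2 in tail were 0.464, 0.966, 0.656 and 0.924. In that contrast 1 member was then past 2-fold, beside 8.65% of all genes. In cells thinned to 3000 UMIs, also chosen after seeing the data, the ratio of *Acta2* between culture and tail in code 1 was 0.892. Without the cells that still held a UMI of *Lmod1* or *Myocd* after thinning, those of *Cnn1* and *Tpm2* were 1.45 and 1.09. Of the 63 ratios of members, 63 stayed within their interval without called doublets and 63 without cells under 1000 genes, and 5 moved when mitochondrial, ribosomal protein and haemoglobin genes left the total. The mean of CPM per cell moved 28, median centring 15 and leaving out the cells with a UMI of *Lmod1* or *Myocd* 21, beside the reversals above. Against the D6 PM, 5 of 6 members were past 2-fold by mean of CPM per cell and 5 past 3-fold, beside 25.3% and 13.7% of all genes. Thinning to 5000 UMIs moved 56 of 90 shares. The cause of these shifts was not tested. Ratios with 7 or fewer UMIs in a group have wide intervals.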

Other observations

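Members were also high outside the tendon-marked codes of the D10 culture. Code 7 held the highest level of *Acta2*, *Tagln*, *Myl9*, *Cnn1*, *Tpm1* and *Actg2* among the combinations of code and library. Its 257 cells had a median of 1424 UMIs against 5622 over the library. For *Actg2* its interval overlaps that of tail code 1. For *Cnn1* the intervals, 36.0 CPM (21.0–57.7) and 20.5 CPM (17.8–23.5), also overlap, but the interval of their ratio leaves out 1. *Cald1* in code 7 was 1127 CPM, under culture codes 1, 2, 4 and 8. Code 8, of 155 cells, held *Acta2* at 909 CPM (852–969) and *Tagln* at 635 CPM (587–686) with *Actg2* at 2 and *Myh11* at 2 UMIs. The small culture code 13, of 43 cells, was left out of the levels for its size. In the D6 PM, code 6 held the highest *Acta2* of that library, at 59.6 CPM (49.1–71.7), and code 5 the highest *Tpm2*, at 369.6 CPM (354–385).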
